A study of Mus musculus with 9 samples.

Results

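The lysosomal cathepsins are the proteases that break down protein inside lysosomes. Expression of 10 cathepsin genes (Ctsa, Ctsb, Ctsc, Ctsd, Ctsh, Ctsk, Ctsl, Ctso, Ctss and Ctsz) was followed in mouse fibroblasts with persistently active STAT3. The genes were chosen by name, and every probeset that carried the symbol of 1 of them and of no other gene was taken, which gave 22 of the 45037 probesets tested and 10 of the 18193 genes with a symbol.

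RNA from 3 lines was hybridized to Affymetrix mouse genome arrays, with 3 arrays a line. The v-Src line was Balb/c-3T3 stably transfected with pMvSrc, a plasmid for the oncogenic tyrosine kinase that Rous sarcoma virus carries, which activates STAT3 among other pathways. The STAT3-C line was Balb/c-3T3 stably transfected with pRc/CMV-STAT3C, in which a cytomegalovirus promoter drives a constitutively active mutant of the transcription factor STAT3. The control was unmodified Balb/c-3T3, an immortalized mouse embryo fibroblast line, and no line carrying an empty vector was part of the comparison. All 3 lines shared the same medium with bovine calf serum. The labels name a single stable line for each transfection, and whether it was a clone or a pool is not given in the sources used here. The 3 arrays of a line came from 3 passages, each a pool of 5 dishes, so p-values measure the spread between passages of a line and not between separately transfected lines. Control and STAT3-C arrays are numbered 1, 2 and 3, and the v-Src arrays are numbered 1, 5 and 6. Values are given in that order.

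Most cathepsins are cysteine proteases of the papain family. Cathepsin A is instead a serine carboxypeptidase and cathepsin D an aspartic protease. They are made as inactive precursors, tagged with mannose 6-phosphate in the Golgi, carried to lysosomes by mannose 6-phosphate receptors, and activated at the acid pH that the vacuolar proton pump maintains. Transformed fibroblasts are known to secrete part of their cathepsin precursors, and mouse cathepsin L was first described as the major protein excreted by such cells. An array measures only the mRNA, and neither protein, activity nor secretion.

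Levels are log2 values made by the study with Robust Multichip Average (RMA), so a difference of 1 is a 2-fold difference. A level describes 1 probeset across arrays and is not comparable between probesets. A gene or probeset was said to rise or fall when limma's test gave a Benjamini-Hochberg adjusted p under 0.05 over all probesets and the fold was at least 1.5. For each gene the probeset whose mean of 9 arrays was highest is described first, and its other probesets follow. The 9 arrays had medians of 6.27 to 6.39 and lower quartiles of 5.07 to 5.15. Pearson's r over all probesets was 0.990 to 0.995 between arrays of a line, 0.971 to 0.977 between v-Src and STAT3-C arrays, and 0.943 to 0.948 between either of these and control arrays. The fibroblast label was checked on 14 markers. Vim, the intermediate filament protein of mesenchymal cells, lay at 13.03 or above on every array, whereas 8 of the 14 markers fell with v-Src and 1 rose, and 9 fell with STAT3-C. Across all genes 10.4% fell with v-Src and 10.3% with STAT3-C. Postn, Thy1 and Pdgfrb had log2 differences of -5.90, -5.17 and -5.06 in v-Src cells, and Postn, Thy1 and Lum of -6.25, -5.18 and -3.51 in STAT3-C cells. The STAT3-C arrays of Lum lay at 4.66 to 4.89, below the lower quartile, so the size of that difference is uncertain. Fn1 was the gene that rose with v-Src, by 1.13. The level summed over these markers was 15.47 to 15.88 on v-Src arrays, 15.40 to 15.44 on STAT3-C arrays and 16.14 to 16.28 on control arrays. The part of this shift in the results below was not tested. Such a sum is the log2 of the added unlogged levels, so probesets with high levels weigh most in it. Mouse Src itself had log2 differences of -0.11 in v-Src cells and -0.12 in STAT3-C cells, neither past the test, and its probesets need not detect the viral gene. At its highest probeset Stat3 rose by 1.53 with v-Src and differed by 0.24 with STAT3-C, while a second Stat3 probeset rose by 1.30 with v-Src and by 0.72 with STAT3-C. Whether these probesets lie within the transfected STAT3-C sequence was not determined, so they do not check the STAT3-C label.

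In v-Src cells 5 of the 10 cathepsin genes rose (Ctsa, Ctsb, Ctsd, Ctso and Ctsz), 1 fell (Ctsk) and 4 did not pass. Across all genes 19.9% passed, 9.54% as higher and 10.4% as lower. In STAT3-C cells 4 of the 10 rose (Ctsa, Ctsb, Ctsh and Ctsz), 1 fell (Ctsk) and 5 did not pass, against 22.2% of all genes, 11.9% higher and 10.3% lower. Tested directly against STAT3-C cells, v-Src cells had higher Ctsk and Ctso and lower Ctsh, where 11.7% of all genes passed, 4.84% higher and 6.83% lower. The median log2 difference of the 10 genes was 0.71 in v-Src cells and 0.38 in STAT3-C cells, against 0.02 and 0.04 over all genes, and it was 0.26 for v-Src against STAT3-C, where all genes had -0.03. The first pair of comparisons uses the same 3 control arrays. At the level of probesets, 10 of the 22 rose and 1 fell in v-Src cells, where 16.8% of all probesets passed (8.75% higher and 8.1% lower). In STAT3-C cells 8 probesets rose and 1 fell, where 18.3% of all passed (9.68% higher and 8.58% lower). Directly compared, v-Src cells had 2 probesets higher and 2 lower, the lower pair being those of Ctsh, where 10.3% of all passed (4.99% higher and 5.33% lower).

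**Figure D1:**
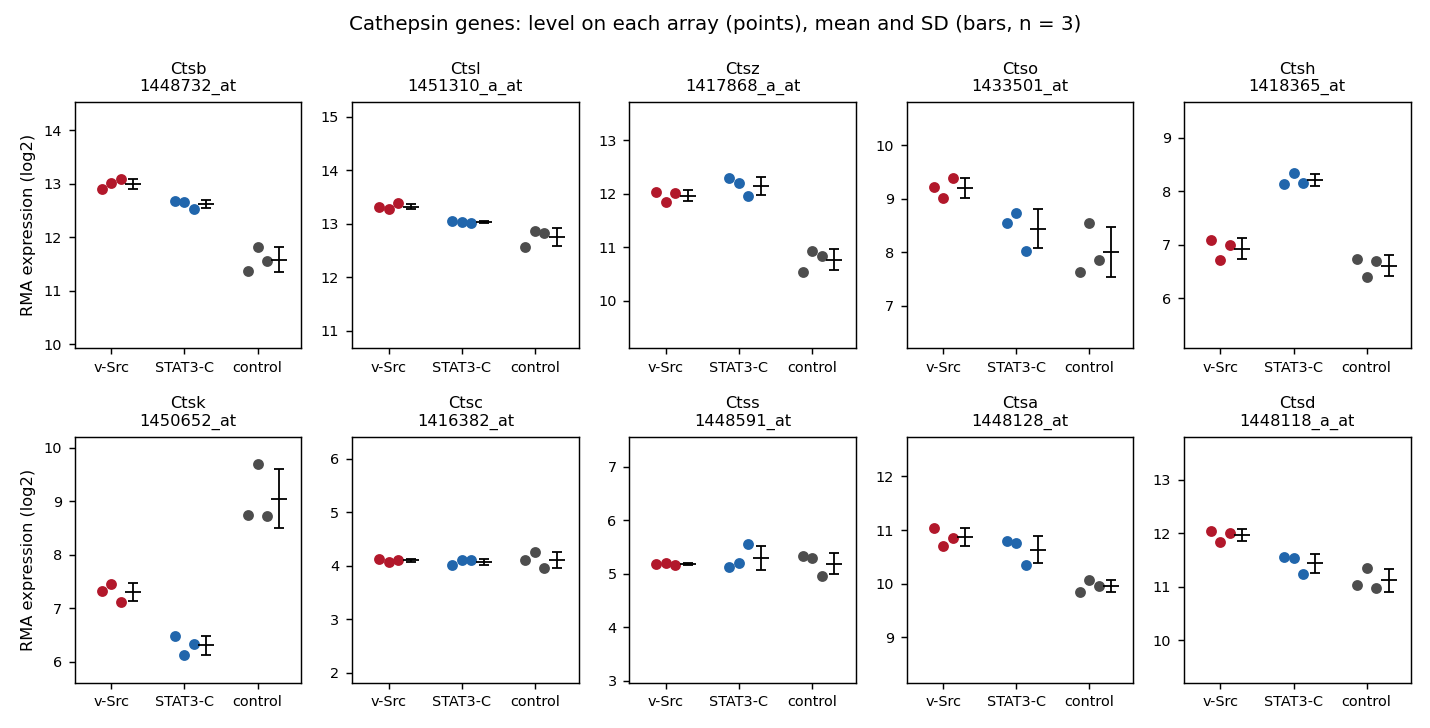
Level of each cathepsin gene at its highest probeset on every array. Each panel has its own log2 axis of equal span; points are the 3 arrays of the v-Src, STAT3-C and control lines in number order, and bars are the mean and SD (n = 3). Ctsb and Ctsz sit above control in both transfected lines, Ctsh clears the control arrays in STAT3-C cells, and Ctsk sits below control, lowest in STAT3-C cells at 6.13 to 6.49.

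Ctsb encodes cathepsin B, a cysteine protease that cuts both within chains and as a peptidyl dipeptidase, and which degrades matrix proteins when it is released. Its highest probeset (1448732_at) read 12.91, 13.01 and 13.09 on the v-Src arrays, 12.68, 12.65 and 12.53 on the STAT3-C arrays, and 11.37, 11.82 and 11.55 on the control arrays. The 3 lines did not overlap, and v-Src was highest and control lowest. The log2 difference from control was 1.42 (SE 0.12, limma adjusted p = 0.000238, 2.68-fold) with v-Src and 1.04 (SE 0.13, adjusted p = 0.00053, 2.06-fold) with STAT3-C. Between v-Src and STAT3-C cells it was 0.38 (95% interval 0.19 to 0.58, adjusted p = 0.0185), a fold of 1.30 and so short of the threshold. The other Ctsb probesets did not all behave alike. Probeset 1417490_at read 12.89, 12.83 and 12.95 with v-Src, 12.44, 12.41 and 12.26 with STAT3-C, and 11.62, 12.12 and 11.85 in control, which is a rise of 1.03 with v-Src and a difference of 0.51 with STAT3-C under the fold threshold. Without control array 2 the STAT3-C difference was 0.64 and passed (adjusted p = 0.00828), and after quantile normalization the direct difference was 0.61 and passed (adjusted p = 0.00302). At 1444987_at the differences were 0.89, a rise, and 0.51, again short of the fold threshold. Probeset 1417492_at rose by 1.07 in v-Src cells and by 1.24 in STAT3-C cells, but its control arrays were spread, at 7.65, 8.64 and 7.81. Its v-Src call was lost, at adjusted p of 0.0509 to 0.0633, when v-Src array 1 or 6 or control array 1 or 3 was left out, at differences of 0.88 to 1.06. The fifth probeset, 1417491_at, had 8.55, 8.10 and 8.18 on v-Src arrays, 8.23, 9.04 and 7.90 on STAT3-C arrays, and 8.04, 8.67 and 8.23 on control arrays, so that all 3 lines overlapped. Its differences were -0.04 and 0.07. Which transcript each probeset detects was not determined.

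Ctsz encodes cathepsin Z, also called cathepsin X, a cysteine carboxypeptidase with an integrin-binding motif in its propeptide. On v-Src arrays it measured 12.03, 11.84 and 12.02, on STAT3-C arrays 12.29, 12.19 and 11.96, and on control arrays 10.54, 10.92 and 10.84 (1417868_a_at). Every v-Src and STAT3-C array lay above every control array. The increase was 1.20 (SE 0.12, limma adjusted p = 0.000381, 2.29-fold) with v-Src and 1.38 (SE 0.13, adjusted p = 0.000167, 2.61-fold) with STAT3-C. Both other probesets rose as well, by 1.34 and 1.13 in v-Src cells and by 1.25 and 1.57 in STAT3-C cells. Between v-Src and STAT3-C cells the arrays overlapped, with a difference of -0.18 and a 95% interval of -0.44 to 0.07. At 1417869_s_at that difference was -0.45 (adjusted p = 0.0745), and without STAT3-C array 3 it was -0.59 and passed (adjusted p = 0.0199).

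**Figure D2:**
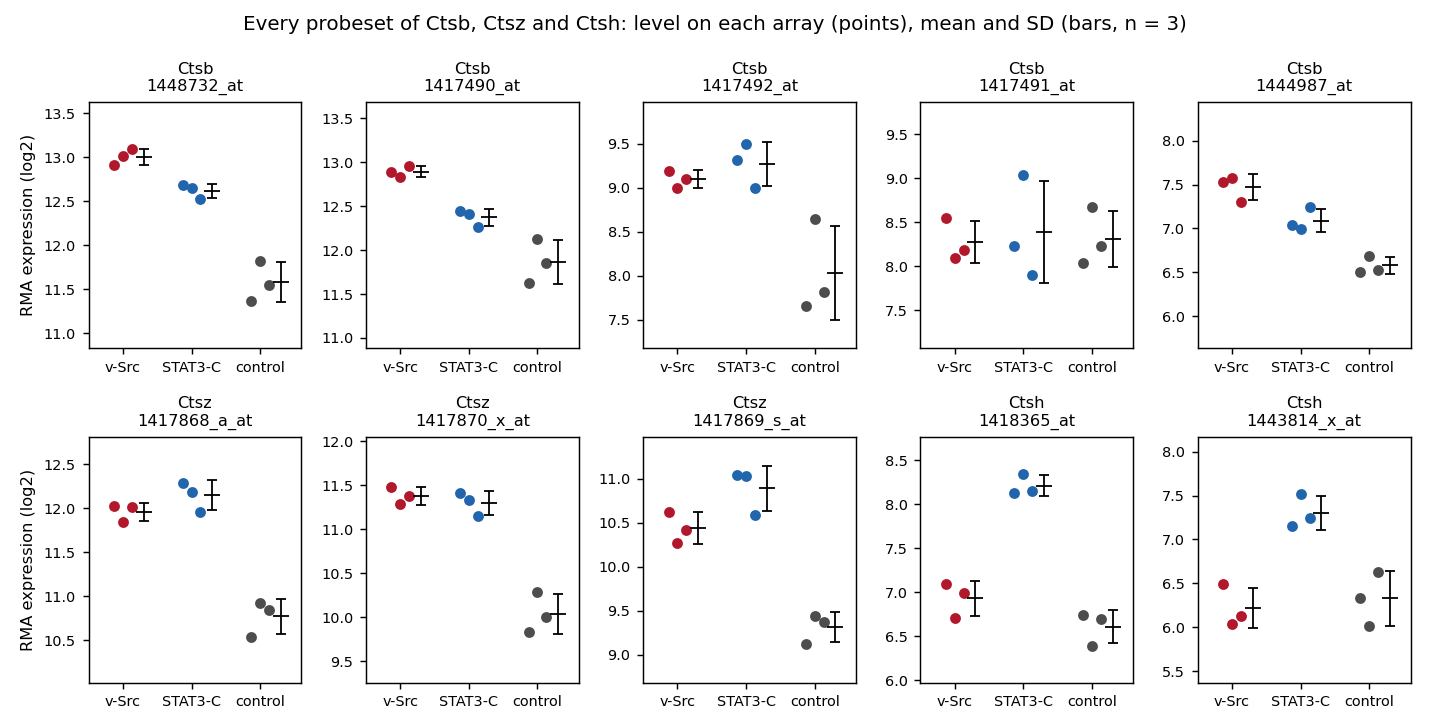
Every probeset of Ctsb, Ctsz and Ctsh on every array, in log2 units on axes of equal span, with the mean and SD (n = 3) beside the points of the v-Src, STAT3-C and control lines. The Ctsb probesets rise with v-Src except 1417491_at, the 3 Ctsz probesets rise in both transfected lines, and both Ctsh probesets are highest in STAT3-C cells.

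Ctsa encodes cathepsin A, the carboxypeptidase that also protects lysosomal beta-galactosidase and neuraminidase in a complex. Levels were 11.04, 10.70 and 10.86 in v-Src cells, 10.79, 10.76 and 10.34 in STAT3-C cells, and 9.85, 10.07 and 9.96 in control cells (1448128_at). Both transfected lines lay above control on every array and overlapped with each other. The gene rose by 0.91 with v-Src (SE 0.11, limma adjusted p = 0.000904, 1.88-fold) and by 0.67 with STAT3-C (SE 0.14, adjusted p = 0.00707, 1.59-fold). Between v-Src and STAT3-C cells the difference was 0.24, with a 95% interval of -0.10 to 0.58. Its second probeset, 1458466_at, had smaller differences of 0.31 and 0.50, both under the fold threshold. Without STAT3-C array 2 its difference with STAT3-C was 0.59 and passed.

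Ctsd encodes cathepsin D, the main aspartic protease of lysosomes. Its single probeset (1448118_a_at) read 12.04, 11.83 and 12.00 on v-Src arrays, 11.55, 11.54 and 11.24 on STAT3-C arrays, and 11.03, 11.35 and 10.97 on control arrays. All v-Src arrays lay above all others, whereas STAT3-C array 3 fell below control array 2. With v-Src the rise was 0.84 (SE 0.12, limma adjusted p = 0.00209, 1.79-fold). With STAT3-C the difference was 0.33 (95% interval 0.01 to 0.64, adjusted p = 0.114). The direct difference of v-Src from STAT3-C was 0.51 (SE 0.11, adjusted p = 0.0176), a fold of 1.43. It was 0.61 and passed when the arrays were quantile normalized again.

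Ctsl encodes cathepsin L, a strong endopeptidase that also processes the invariant chain in thymic epithelium. The arrays had 13.31, 13.28 and 13.38 with v-Src, 13.05, 13.03 and 13.01 with STAT3-C, and 12.57, 12.86 and 12.82 in control (1451310_a_at). The lines were ordered v-Src, STAT3-C, control with no overlap. The v-Src difference was 0.58 (SE 0.10, limma adjusted p = 0.00425), which is 1.49-fold and so just short of the threshold. Without v-Src array 5, control array 2 or control array 3 it was 0.60, 0.63 and 0.61 and passed. With STAT3-C the difference was 0.28 (adjusted p = 0.0752), and for v-Src against STAT3-C it was 0.29 (adjusted p = 0.0261). These levels lay at the 99.4th to 99.8th percentile of their arrays, and whether the signal there was compressed was not tested. The other Ctsl probeset had 5.14 to 5.49 over the 9 arrays, near the lower quartile of the arrays, and no difference passed.

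Ctso encodes cathepsin O, a cysteine protease whose role is less well known. It measured 9.21, 9.01 and 9.38 in v-Src cells, 8.55, 8.73 and 8.03 in STAT3-C cells, and 7.64, 8.54 and 7.86 in control cells (1433501_at). The v-Src arrays were above all others, and the STAT3-C and control arrays overlapped. The v-Src rise was 1.19 (SE 0.23, limma adjusted p = 0.00751, 2.28-fold), and the STAT3-C difference was 0.43 (95% interval -0.16 to 1.01, adjusted p = 0.254). Control array 2 decided that second result, since without it the STAT3-C difference was 0.69 and passed (adjusted p = 0.0464). Against STAT3-C, v-Src cells were higher by 0.76 (SE 0.19, adjusted p = 0.0271). That call was lost without v-Src array 1 or 6 or STAT3-C array 1 (adjusted p = 0.085, 0.0945 and 0.0745), and without STAT3-C array 3 the difference of 0.56 was under the fold threshold. At the second probeset, 1443084_at, the differences were 0.31, -0.14 and, against STAT3-C, 0.45 (adjusted p = 0.0235, under the fold threshold), so no difference passed at that probeset.

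Ctsh encodes cathepsin H, the aminopeptidase of the family, known in lung for its part in processing surfactant protein. Its levels were 7.09, 6.71 and 6.99 on v-Src arrays, 8.13, 8.35 and 8.15 on STAT3-C arrays, and 6.74, 6.39 and 6.70 on control arrays (1418365_at). The STAT3-C arrays stood above all others, and the v-Src and control arrays overlapped. STAT3-C cells were 1.60 above control (SE 0.12, limma adjusted p = 5.56e-05, 3.04-fold), while v-Src cells differed from control by 0.32 (95% interval 0.00 to 0.64, adjusted p = 0.127). The direct difference, v-Src minus STAT3-C, was -1.29 (SE 0.12, adjusted p = 0.000807). The second probeset, 1443814_x_at, read 6.49, 6.04 and 6.13 with v-Src, 7.15, 7.52 and 7.24 with STAT3-C, and 6.33, 6.02 and 6.63 in control. The STAT3-C arrays were again above all others, and the v-Src and control arrays overlapped, with a rise of 0.98 with STAT3-C, a difference of -0.11 with v-Src and -1.08 between v-Src and STAT3-C (adjusted p = 0.00285).

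Ctsk encodes cathepsin K, a collagenase best known from bone-resorbing osteoclasts and also made by fibroblasts. It was the member that fell. On v-Src arrays it read 7.33, 7.46 and 7.12, on STAT3-C arrays 6.49, 6.13 and 6.33, and on control arrays 8.75, 9.69 and 8.72 (1450652_at, its only probeset). The lines did not overlap, with STAT3-C lowest and control highest. The log2 difference was -1.75 with v-Src (SE 0.26, limma adjusted p = 0.00244), 3.36-fold lower than control, and -2.74 with STAT3-C (SE 0.25, adjusted p = 0.000131), 6.67-fold lower. Against STAT3-C, v-Src cells were 0.99 higher (SE 0.13, adjusted p = 0.00236). Among 8 osteoclast markers, Acp5, Calcr, Ocstamp, Dcstamp, Tnfrsf11a, Atp6v0d2 and Oscar passed in no comparison. Calcr had a mean of 4.36, below the lower quartile of the arrays, and Ocstamp (5.22) and Acp5 (5.27) lay near it. Mmp9, a gelatinase, rose by 0.93 in v-Src cells and by 0.76 in STAT3-C cells, and by 2.21 and 2.08 at its second probeset. The level summed over these 8 markers was 9.15 to 9.32 on v-Src, 8.98 to 9.11 on STAT3-C and 8.77 to 9.01 on control arrays. Mmp9 weighed most in that sum, and the median log2 difference of the 8 was 0.08 with v-Src and -0.07 with STAT3-C.

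Ctss, which encodes the cathepsin that trims the invariant chain in antigen-presenting cells, is the next protein-coding gene to Ctsk on chromosome 3. It had 5.19, 5.21 and 5.17 on v-Src arrays, 5.12, 5.21 and 5.56 on STAT3-C arrays, and 5.33, 5.29 and 4.97 on control arrays (1448591_at). All lines overlapped near the lower quartile of the arrays. The differences were -0.01 in v-Src cells and 0.11 in STAT3-C cells. Of the genes that flank the pair, Arnt had differences of 0.16 and 0.24 and Hormad1 of -0.04 and -0.07, and neither passed. Golph3l, the next beyond Hormad1, had 0.32 with v-Src and rose by 0.62 with STAT3-C (limma adjusted p = 0.00731). Ctsc, for the dipeptidyl peptidase that activates granule serine proteases of immune cells, had 3 probesets between 3.62 and 4.26 on every array, below the lower quartile of each. At its highest probeset (1416382_at) the arrays read 4.13, 4.06 and 4.11 with v-Src, 4.01, 4.11 and 4.11 with STAT3-C, and 4.11, 4.26 and 3.96 in control, and the differences were -0.01 and -0.03. At such levels a difference may not be detectable on the array, so these values do not show that Ctsc or Ctss was unchanged.

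**Figure D3:**
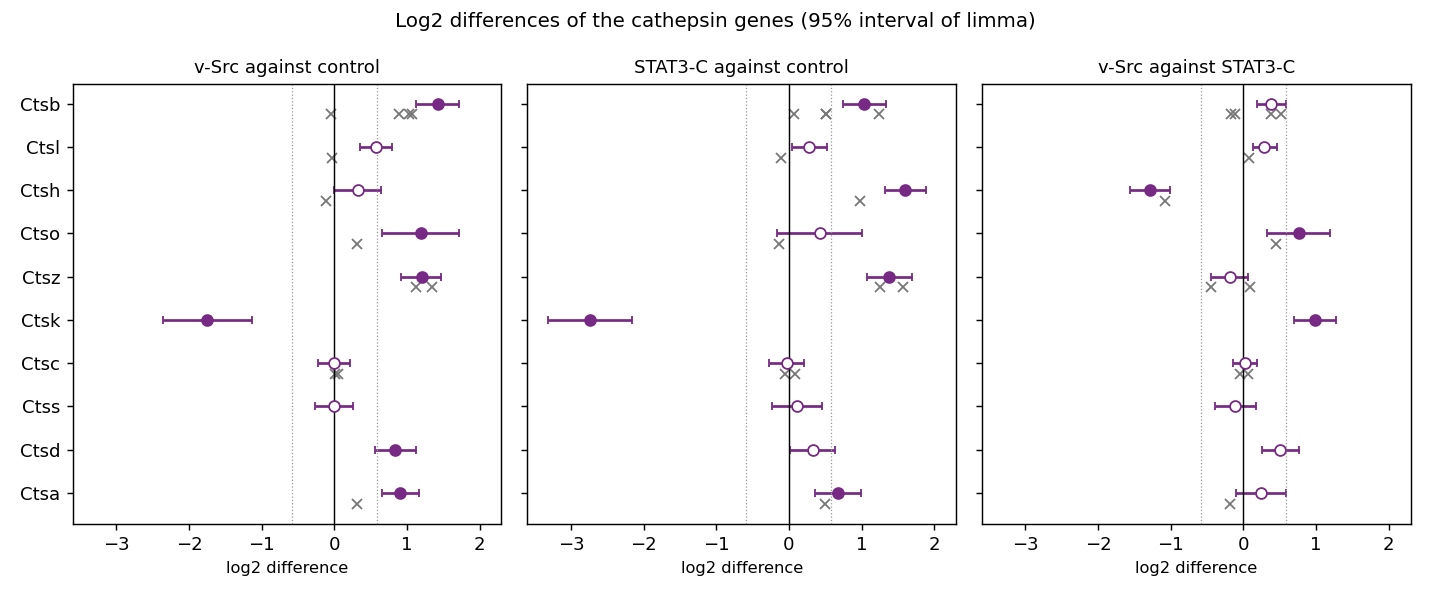
Log2 differences of the 10 genes in the 3 comparisons, first-named line minus second. Circles are the highest probeset with limma's 95% interval, filled where the gene passed the test, crosses are the gene's other probesets, and dotted lines mark a fold of 1.5. Ctsk is lower in both transfected lines at -1.75 and -2.74, and Ctsh, at -1.29, is the member that passed the test as lower in v-Src cells than STAT3-C cells.

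Control array 2 stood apart at these genes. It was the highest of the 3 control arrays at 15 of the 22 cathepsin probesets and at 7 of the 8 member genes with a mean above the array median, whereas it was highest at 35.6% of all probesets. Its mean deviation from the control mean was 0.16 over the cathepsin probesets and 0.00 over all probesets. Without it, 7 genes passed in v-Src cells and 6 in STAT3-C cells, Ctsl and Ctso being the additions, and no call was lost. It read highest for Ctsk too, which fell.

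RefSeq promoter windows (GRCm38.p6, from 250 bases before to 50 after the transcription start) were at hand for Ctsa, which has 2, Ctsc, Ctsd, Ctsk, Ctsl, Ctso, Ctss and Ctsz. Ctsb and Ctsh are named only. Windows were searched on both strands for CACGTG, the E-box at the core of the site of TFEB, a regulator of lysosomal genes. They were also searched for TTCNNNGAA, a STAT motif, and for the interferon response motif, which is GAAA, any 2 bases and GAAA again. The study's own STAT3 consensus is wider and allows other spacings between TT and AA. Its site in the Necdin promoter has 2 bases between TTC and GAA, which TTCNNNGAA would miss. The wider consensus was not searched. CACGTG was in 3 of the 9 windows of members (Ctsa, Ctsd and Ctsl) and in 7.15% of all 32851 windows. TTCNNNGAA was in 1 (Ctsc) and in 8.3% of all, and the interferon response motif was in 2 (Ctso and Ctss) and in 3.44% of all. A match is a string of letters and not a shown binding site. The windows of Ctsa (the one of its pair with the match), Ctsd and Ctsl are printed because they hold the E-box, and those of Ctsk and Ctss because these genes are neighbours, with the values given above. Each runs 5′ to 3′ along the gene from 250 bases before the start, with motif matches in capitals.
Ctsa (chr2:164833523-164833783, + strand): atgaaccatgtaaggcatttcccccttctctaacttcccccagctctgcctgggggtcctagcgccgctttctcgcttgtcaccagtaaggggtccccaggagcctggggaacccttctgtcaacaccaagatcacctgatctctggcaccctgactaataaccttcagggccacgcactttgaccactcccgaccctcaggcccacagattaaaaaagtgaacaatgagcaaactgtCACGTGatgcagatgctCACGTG
Ctsd (chr7:142387828-142388077, - strand): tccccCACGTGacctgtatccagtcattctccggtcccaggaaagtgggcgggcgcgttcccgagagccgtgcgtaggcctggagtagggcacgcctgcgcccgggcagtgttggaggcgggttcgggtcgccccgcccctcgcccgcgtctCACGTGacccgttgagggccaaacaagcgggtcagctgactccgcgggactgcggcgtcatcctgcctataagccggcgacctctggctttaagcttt
Ctsl (chr13:64370521-64370770, - strand): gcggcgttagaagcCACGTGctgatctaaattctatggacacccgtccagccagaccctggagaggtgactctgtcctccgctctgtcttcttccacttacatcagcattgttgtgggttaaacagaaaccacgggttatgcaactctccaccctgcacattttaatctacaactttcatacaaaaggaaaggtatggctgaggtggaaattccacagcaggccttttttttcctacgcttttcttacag
Ctsk (chr3:95498960-95499209, + strand): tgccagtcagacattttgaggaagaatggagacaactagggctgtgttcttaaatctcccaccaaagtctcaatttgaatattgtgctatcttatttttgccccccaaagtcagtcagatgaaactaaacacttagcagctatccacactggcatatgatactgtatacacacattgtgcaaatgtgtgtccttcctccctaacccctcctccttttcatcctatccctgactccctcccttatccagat
Ctss (chr3:95526536-95526785, + strand): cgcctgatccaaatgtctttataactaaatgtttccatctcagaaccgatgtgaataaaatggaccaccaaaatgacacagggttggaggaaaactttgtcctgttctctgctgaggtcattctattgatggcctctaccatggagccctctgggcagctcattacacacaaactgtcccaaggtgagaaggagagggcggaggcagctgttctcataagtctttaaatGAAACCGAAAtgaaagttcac
The E-box occurs at -12 and 6 from the start of Ctsa and at -245 and -98 from that of Ctsd, counted to its first base. Ctsl has it at -236. The capitals in Ctss are the interferon response motif, at -21. Ctsk holds none of the 3 motifs in this stretch.

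The other lysosomal genes gave a mixed picture. Over 6 lists of other lysosomal peptidases, glycosidases and sulfatases, lipid enzymes and transporters, membrane proteins, proton pump subunits and mannose 6-phosphate sorting, 97 of 106 listed genes were measured. Of these, 18.6% rose and 8.25% fell with v-Src, and 21.6% rose and 14.4% fell with STAT3-C, at median differences of 0.12 and 0.04. The shares of all genes, given above, were 9.54% and 10.4% in v-Src cells, and 11.9% and 10.3% in STAT3-C cells. Of the 7 other lysosomal peptidases, 4 rose in v-Src cells and 3 in STAT3-C cells, and none fell. Lgmn, for legumain, an asparaginyl protease that activates cathepsin precursors, had 11.51, 10.68 and 11.31 on v-Src arrays, 10.61, 10.84 and 10.55 on STAT3-C arrays, and 9.01, 8.96 and 9.49 on control arrays. It rose by 2.01 with v-Src (limma adjusted p = 0.000833) and by 1.51 with STAT3-C (adjusted p = 0.000254). Napsa, for the aspartic protease napsin A, had 9.78, 8.97 and 9.39 with v-Src, 8.97, 9.32 and 8.97 with STAT3-C, and 5.80, 5.80 and 5.99 in control. Its rise was 3.52 and 3.23 at that probeset, but its second probeset differed by only 0.12 and 0.13. Tpp1, for tripeptidyl peptidase, rose by 0.71 with v-Src and differed by 0.02 with STAT3-C, but its second probeset had -0.28 and 0.11. Prcp, for a carboxypeptidase, rose by 0.96 with STAT3-C and differed by 0.24 with v-Src, with 0.42 and 0.07 at its second probeset. For Scpep1, a serine carboxypeptidase, the 2 probesets disagreed, with 0.95 and 0.12 at the highest and 0.22 and 0.71 at the other. Over the genes named from the 6 lists, 13 of those that passed with v-Src had another probeset above the array median, and at 7 of them such a probeset did not pass the same way. With STAT3-C this was so at 8 of 14. List values given here are those of the highest probeset, and not every disagreeing probeset is named. Dpp7 differed by 0.16 and 0.21, and Cpq by 0.07 and 0.29.

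Among the 21 measured glycosidases and sulfatases, 6 rose and 3 fell with v-Src, and 4 rose and 2 fell with STAT3-C. Gla, Galc and Gusb, which break down glycolipids and glycosaminoglycans, rose by 1.49, 1.24 and 1.14 in v-Src cells and by 1.03, 1.25 and 0.76 in STAT3-C cells, although a second Gla probeset had 0.10 with STAT3-C. Manba, for beta-mannosidase, fell from a control mean of 6.99, with differences of -2.04 and -2.27. Its means of 4.95 in v-Src and 4.72 in STAT3-C cells lie below the lower quartile, so the size of these differences is uncertain. Hgsnat, an acetyltransferase of heparan sulfate breakdown, fell by 0.85 with v-Src and differed by -0.21 with STAT3-C, and Arsb, a sulfatase, fell in both (-0.65 and -0.61). Of the 13 lipid enzymes and transporters, v-Src cells had 2 higher and 2 lower and STAT3-C cells 4 higher and 4 lower. Naaa, an acid amidase, rose by 1.70 and 2.20, and Gm2a, the ganglioside activator, by 1.03 and 1.47. Ppt1, a thioesterase, rose by 0.68 with STAT3-C and differed by 0.52 with v-Src, but its second probeset rose in both, by 0.82 and 0.85. Pla2g15, a lysosomal phospholipase, fell (-2.06 and -2.00), as did Lipa, the acid lipase (-1.39 and -1.11). Npc1, the cholesterol transporter, fell by 0.70 with STAT3-C and differed by 0.55 with v-Src. Of 17 membrane proteins, 2 rose and 1 fell with v-Src, and 4 rose and 2 fell with STAT3-C. Glmp, a heavily glycosylated membrane protein, rose by 1.35 and 1.01, and Laptm4b rose by 0.61 with v-Src. The ion channels Tpcn1 and Tpcn2 rose by 0.68 and 0.69 with STAT3-C, but a second Tpcn1 probeset differed by 0.07. Sidt2 fell in both (-0.95 and -0.69). Lamp1, a widely used lysosomal marker, differed by 0.00 with v-Src and fell by 0.65 with STAT3-C. Of the 22 proton pump subunits, v-Src cells had 3 higher and 1 lower and STAT3-C cells 3 higher and 2 lower. Atp6v0a2 rose by 1.17 and 0.65, while Atp6v0d1 fell (-1.21 and -0.71). The other Atp6v0a2 probesets had -0.14 and 0.25 with STAT3-C, and neither passed. With v-Src they had 0.53 and 0.74, of which the 0.74 passed. Atp6v0b and Atp6v1a rose by 1.17 and 1.09 with v-Src, Atp6v1d and Atp6v1h rose by 0.83 and 0.72 with STAT3-C, and Atp6v0e2 fell by 1.06 with STAT3-C.

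Of the 17 sorting genes, 1 rose and 1 fell with v-Src, and 3 rose and 4 fell with STAT3-C. Compared directly, 1 of the 17 passed. That gene, Igf2r, the large mannose 6-phosphate receptor which carries cathepsin precursors, had 10.38, 10.42 and 10.48 on v-Src arrays, 7.56, 7.28 and 7.46 on STAT3-C arrays, and 9.98, 10.19 and 9.98 on control arrays. STAT3-C cells stood far below both other lines. The log2 difference was -2.61 with STAT3-C (SE 0.11, limma adjusted p = 3.17e-06), 0.38 with v-Src (SE 0.09, adjusted p = 0.0155, short of the 1.5-fold needed), and 2.99 between v-Src and STAT3-C (SE 0.09, adjusted p = 2.01e-05). A second Igf2r probeset had -2.23, -0.15 and 2.07 for the same comparisons. M6pr, the small receptor, fell by 0.66 with STAT3-C and differed by -0.24 with v-Src, but its second probeset had -0.14 and 0.24. Lrp1, an endocytic receptor, fell by 1.20 with STAT3-C, and Vps35, of the retromer, fell by 0.71 with v-Src, against 0.19 at its second probeset. Ap1s1, an adaptor subunit, rose by 1.04 and 1.00. Gnptg, a subunit of the enzyme that adds the tag, and Vps29, also of the retromer, rose by 0.59 and 0.63 with STAT3-C.

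**Figure D4:**
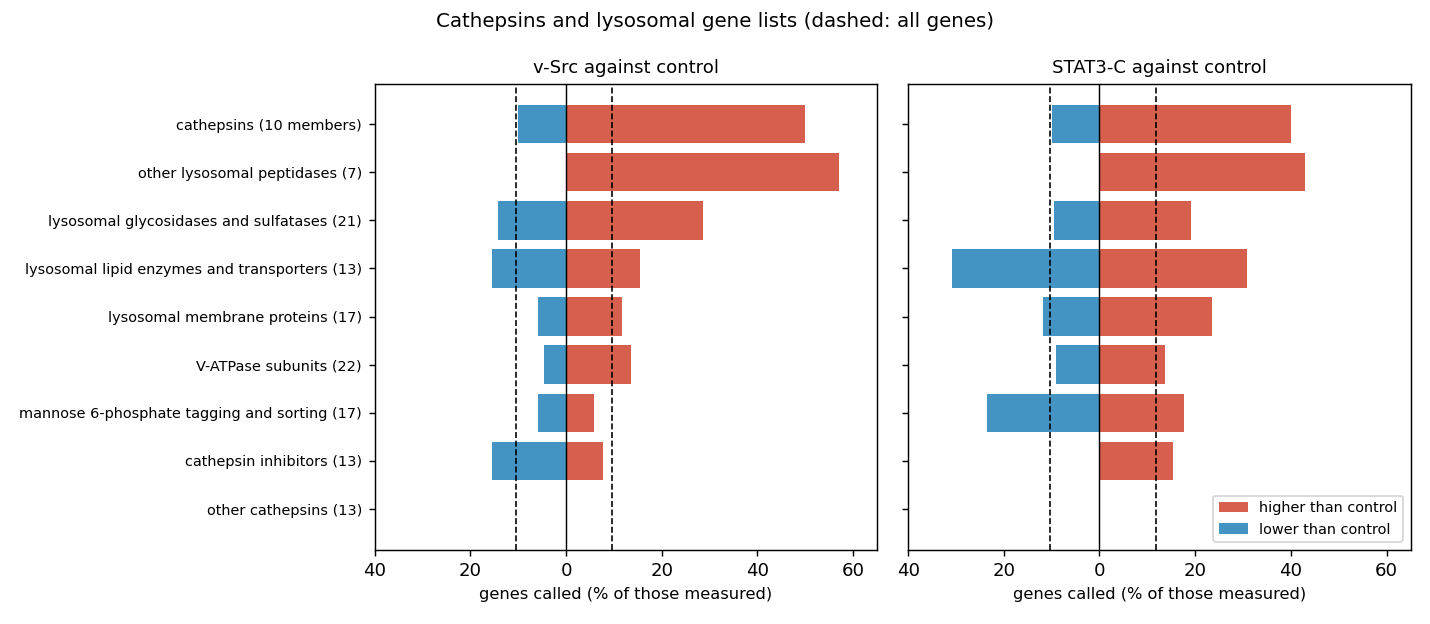
Share of measured genes that passed as higher (right) or lower (left) than control in v-Src cells (left panel) and STAT3-C cells (right panel), in percent, for the 10 cathepsins and the related lists, with the number measured in parentheses. Dashed lines are the shares of all genes, 9.54% and 10.4% for v-Src, and 11.9% and 10.3% for STAT3-C. None of the 13 other cathepsins passed, but 7 of them had means below the lower quartile of the arrays, where a difference may not be detectable.

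Cathepsin activity is held in check by cystatins and related inhibitors, of which 13 of 16 listed were measured. With v-Src 1 rose and 2 fell, and with STAT3-C 2 rose and none fell. Across all genes 9.54% rose and 10.4% fell with v-Src, and 11.9% rose and 10.3% fell with STAT3-C. Cst3, for the secreted cystatin C, differed by -0.06 in v-Src cells and by -0.35 in STAT3-C cells, and Cstb, for the cytosolic cystatin B, by 0.04 and 0.17, and neither passed. Cst6, for cystatin E/M, fell by 0.60 with v-Src and differed by -0.41 with STAT3-C, with a v-Src mean of 4.81 that is below the lower quartile. Ctla2a encodes an inhibitor related to the propeptide of cathepsin L. Its arrays read 4.09, 3.91 and 4.25 with v-Src, 7.51, 8.16 and 6.66 with STAT3-C, and 4.61, 4.86 and 5.21 in control. The STAT3-C arrays were the high ones, with a fitted difference of 2.55 from control (limma adjusted p = 0.000853). The v-Src arrays and most control arrays lay below the lower quartile, so the size of this difference is uncertain and the test's -0.81 between v-Src and control compares values near the floor of the array. For its paralog Ctla2b the levels were 5.64, 5.44 and 5.55 with v-Src, 8.26, 8.09 and 6.67 with STAT3-C, and 4.02, 4.46 and 4.36 in control, with fitted differences of 1.27 in v-Src cells and 3.39 in STAT3-C cells. All control arrays lay below the lower quartile, so these sizes are uncertain too. The paralogs are near-identical, so how far their probesets tell them apart is uncertain.

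Of the MiT/TFE factors, which switch on lysosomal genes through the E-box, Mitf alone passed. It had 9.62, 8.96 and 9.46 on v-Src arrays, 7.77, 8.13 and 7.54 on STAT3-C arrays, and 8.37, 8.10 and 8.19 on control arrays. The rise with v-Src was 1.13 (limma adjusted p = 0.00281), and the STAT3-C difference was -0.41 (adjusted p = 0.0859). Tfeb differed by 0.04 and -0.02, Tfe3 by -0.56 and -0.56, which is under the fold threshold, and Tfec by 0.15 and -0.06. In antigen processing, where cathepsins S and L act on the invariant chain, Cd74, which encodes that chain, rose by 1.01 and 1.45, and H2-Ab1, of a class II molecule, fell (-0.64 and -0.61). The other 8 genes measured there did not pass with either line.

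Because Ctss, Ctsc and other cathepsins are abundant in macrophages, 16 macrophage markers were set beside these values. With v-Src 2 of the 16 rose and with STAT3-C 3, and none fell. Of all genes, 9.54% rose with v-Src and 11.9% with STAT3-C. Cd14, a receptor for bacterial lipid, rose by 2.12 and 2.12, Lyz2, for lysozyme, rose by 0.86 and 1.95, and Cd68, itself a lysosomal membrane glycoprotein, rose by 1.14 with STAT3-C and differed by -0.03 with v-Src. The level summed over the 16 was 11.20 to 11.43 on v-Src arrays, 11.27 to 11.61 on STAT3-C arrays and 10.39 to 10.56 on control arrays. Of the 16 markers, 4 (Ptprc, Itgam, Aif1 and C1qb) had means below the lower quartile of the arrays, and Ptprc, Itgam and Aif1 lay at 3.96 to 4.82 on every array. Others read above it, with means of 7.81 for Laptm5, 7.54 for Csf1r, 6.43 for Fcer1g, 6.19 for Adgre1 and 6.10 for Spi1, and these 5 passed in no comparison. None of 11 epithelial or 6 endothelial markers passed against control. The endothelial genes Pecam1, Cdh5, Kdr, Tek, Tie1 and Emcn differed from control by 0.00 to 0.27. Of these 6, 3 (Pecam1, Tek and Tie1) had means below the lower quartile of the arrays, where a difference may not be detectable.

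For each member, the genes with the most similar profile were found among 11817 or 11818 genes above the median level. The 9 arrays fall into 3 lines, so a high Pearson r mostly restates the order of the lines, and it is given as a description with no test. Ctsk was closest to Otub1 (0.987), Ubfd1 (0.987) and H3c4 (0.985). Ctsb was closest to 2810002D19Rik (0.991), Ica1 (0.988) and Ensa (0.987), and Ctsh to Lxn (0.987), Zfyve21 (0.985) and Ccdc85b (0.985). Glmp, named above, was among the 3 closest to Ctsa at 0.986. Steap3, for an endosomal iron reductase, was among the 3 closest to both Ctsd (0.988) and Ctso (0.985).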

How the data were processed

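The deposited table holds log2 expression values, which the authors made from the scanned arrays with RMA. The version is not given in the sources used here. By their methods the control arrays went through RMA in separate runs, with each transfected line in turn. The table has 1 column a control array and names no run. If each transfected line kept its own run, run and line cannot be told apart in the direct comparison. The control columns could then come from the run of at most 1 of these lines. The other line's comparison with control would have the same limit.

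Values were used as deposited. Of 45101 probesets, 64 Affymetrix controls were left out. The array's platform annotation gave 34945 probesets with 1 symbol, 932 with several and 9160 with none, and 34741 matched a mouse gene table (GRCm38.p6), which served for names and gene order. Lines were compared with limma 3.58.1 in R 4.3.3 (lmFit and eBayes, two-sided, 6 arrays a comparison), with Benjamini-Hochberg adjustment over 45037 probesets. In simulated data limma recovered 97%, 95% and 94% of 2-fold changes (v-Src and STAT3-C against control, v-Src against STAT3-C), with 12, 6 and 7 false calls of 45037. The simulation drew independent normal noise with limma's own variances and changed far fewer probesets than passed in the data. Variation shared by the probesets of an array was not simulated, so these rates need not hold for the data. Arrays show no read depth; 3 arrays a line limit the precision. Replicate numbers were checked for pairing: deviations of same-numbered STAT3-C and control arrays correlated at -0.09, 0.06 and 0.04. With 3 arrays a line this does not settle whether same-numbered arrays were handled together, which the sources used here do not say.

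Named are all members at every probeset and, from each list, up to 3 genes higher and 3 lower with the largest difference among those past the test in each line, and every gene of lists of 8 or fewer. Arnt, Hormad1, Golph3l, Vim, Cst3, Cstb and the leukocyte genes that did not pass were added after their values were seen. Members and lists were chosen with earlier results of these data known. Alternatives were 1 fit of all 9 arrays, median centring, quantile normalization, only those probesets whose mean exceeded the median, other fold and p thresholds, SAM (20 groupings, q under 5%), eBayes with trend, the mean of a gene's probesets, leaving out each array and a replicate block. Figures used python 3.11.15 and matplotlib 3.10.9. Protein sequences were not used here. Some genes of the lists are not analysed here.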

Additional observations from a re-analysis of the deposited data

Results flagged for a closer look

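The results below stand out because v-Src and STAT3-C cells differed in the direct limma test, at least 1.5-fold and at an adjusted p below 0.05, as 11.7% of all genes did. No test for a single outlying value was run on groups of 3 arrays. Genes are given as named in the report; over the 6 lysosomal lists 11 genes passed as higher and 5 as lower, and 10 of them are given here. Differences are log2, v-Src minus STAT3-C.

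Among the cathepsins, Ctsh differed by -1.29 and, at its second probeset, -1.08, Ctsk by 0.99 and Ctso by 0.76. Among their inhibitors, Ctla2a differed by -3.36 and Ctla2b by -2.13. The v-Src arrays of Ctla2a lay at 3.91 to 4.25, below the lower quartile of the arrays, so the size of its difference is uncertain. Of the other lysosomal peptidases, Tpp1 differed by 0.69 (-0.39 at its second probeset), Scpep1 by 0.83 (-0.49 at its second) and Prcp by -0.72 (-0.35 at its second). In the remaining lysosomal lists Hgsnat, an acetyltransferase of heparan sulfate breakdown, differed by -0.63 and Npc1, the cholesterol transporter, by 1.24. Lamp1 differed by 0.65 and Tpcn2, an ion channel, by -0.79. Values were 0.68 for Atp6v0b, 0.68 for Atp6v1a and 2.99 for Igf2r. Other probesets had 0.92 and 0.37 for Atp6v0b, 0.11 for Atp6v1a and 2.07 for Igf2r, and those at 0.37 and 0.11 did not pass. Mitf differed by 1.53. Of the fibroblast markers 2 passed as higher and 3 as lower, of the macrophage markers 2 as lower and of the epithelial markers 1 as higher. Among them, Pdgfrb differed by -3.13, Fn1 by 0.83, Cd68 by -1.17 and Lyz2 by -1.09. Stat3 differed by 1.29 at its highest probeset.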

How the results depend on the processing

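Of 825 values of single cathepsin probesets under the alternatives, 808 kept their side of the threshold, 8 lost the call and 9 gained it. The other fold and p thresholds are not among these values and are given below as counts of genes. No called value changed sign. The 808 include 27 values that did not pass and changed sign, the largest at 0.25. The count of genes past the test in v-Src against control was 6 with the settings of the report and 4 (a fold of at least 2) to 7 otherwise. In STAT3-C against control it was 5, and 4 to 6 otherwise. In v-Src against STAT3-C it was 3, and it was 1 with a fold of at least 2, where Ctsh was left, and 6 with no fold threshold, where Ctsb, Ctsd and Ctsl were added. It was 2 at an adjusted p under 0.01 and 4 after quantile normalization. Leaving out 1 array at a time gave 6 to 7 genes, 5 to 6 genes and 2 to 3 genes in these comparisons, and the arrays that moved a call are named in the report. With the replicate number as a block, STAT3-C against control again gave 5 genes, the same ones, and the block changed no cathepsin call. For v-Src, no paired analysis was possible because its arrays share only number 1 with the other lines. SAM called the same genes in all 3 comparisons. Of all probesets, a fold of at least 2 left 7.79% for v-Src, 8.24% for STAT3-C (each over control) and 3.32% between these lines, and no fold threshold gave 28.4%, 29.6% and 20.3% in the same order. The filter to probesets above the median left 8 of the 10 genes. Signal over background limits Ctsc and Ctss, whose probesets lay near or below the lower quartile of the arrays.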
